A study of Mus musculus with 60 samples.

Results

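The genes described here are the protein-coding genes of mouse chromosome 14 whose start lies between positions 48657677 and 64647265 (mm10, GENCODE), a stretch of 15.99 Mb, and whose mean CPM (counts scaled to a common library total) over the Ctrl T0 libraries was at least 1. Of 271 protein-coding genes considered in the interval, 131 reached that level and are called the segment genes, out of 55487 genes in the count tables. The other 140 stayed below it, and 88 of these had no read in any Ctrl T0 library. The interval was chosen by its raised expression in MCM2-2A cells in these data, so the difference between the lines in Ctrl at T0 is given as a description and is not tested. The other times and the dPOLE4 libraries hold different RNA of the same clones.

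All cells were E14JU mouse embryonic stem cells (mESCs) in which POLE4, a subunit of the leading strand DNA polymerase epsilon, carries a dTAG degron. One line, called WT here, has unmutated Mcm2. The MCM2-2A line (clone 2 in the labels) carries the histone-binding mutation of MCM2, a subunit of the replicative helicase, and received the degron separately. Each line is 1 clone, so the mutation and any other difference between the clones cannot be told apart. Both lines received DMSO (Ctrl) or 1 µM dTAG (dPOLE4) for 24 h in serum and LIF (T0), followed by 12 h (T12), 24 h (T24) or 60 h (T60) of retinoic acid (RA) without LIF, or the same treatments for 96 h in a second experiment. Each of the 20 groups had 3 libraries, 60 in all, and RNA depleted of rRNA was sequenced. The protocol label names times of 24, 48 and 60 h of RA, and the titles, followed here, name 12, 24 and 60 h.

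A cell with an extra copy of a chromosome stretch usually makes more RNA from most genes in it, roughly in proportion to the copies, while feedback on single promoters or transcripts can hold some genes closer to their normal level. Many proteins encoded in such a stretch work in complexes with partners encoded elsewhere, whose genes keep their usual dose. Expression ratios along the chromosome show such a stretch as a block with sharp ends, although RNA does not measure DNA copies, and the copy number of the clones was not tested here. The segment holds genes for chromatin factors, RNA-binding proteins, proteasome subunits and many enzymes, along with germ cell genes such as Rec8.

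Counts per library totalled between 7126100 and 46609151, and 58412 to 447371 of these fell on the segment genes. In Ctrl at T0 the segment genes ranged from 1.03 to 1228.2 CPM, with a median of 15.02, and 80 of them reached 10 CPM. At 96 h in Ctrl, Mcm2 was at 300.2 ± 8.42 CPM in the MCM2-2A line and 532 ± 14.6 CPM in WT (SD, n = 3 each), and at T12 its log2 fold change was -0.86 (adjusted p = 8.09e-06, edgeR quasi-likelihood test). Pole4 transcript differed by -0.75 at T12 (adjusted p = 7.16e-05); the degron acts on the protein. All 10 pluripotency markers were above 1 CPM in both lines, at a summed 3991 to 4234 CPM in WT and 4340 to 4953 CPM in MCM2-2A at T0, and 4 blood markers summed to at most 7.12 CPM at any time.

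The segment genes were expressed at about 2-fold the WT level in the MCM2-2A line at every time. In the 27 MCM2-2A libraries outside the Ctrl T0 group that was used to choose the interval, the median log2 ratio of the 131 genes to the mean of the WT group of the same treatment and time lay between 0.84 and 1.04. The WT libraries enter the mean they are set against, so their own range of -0.06 to 0.04 shows their spread only. Over protein-coding genes outside chromosomes 11, 14 and 15 the median ratio stayed between -0.06 and 0.00 in these 27 MCM2-2A libraries. In each of them, 127 to 131 of the 131 genes were above the WT mean. Their share of all counts, which needs no reference group, was 0.494% to 0.63% in the WT libraries outside Ctrl T0 and 0.909% to 1.07% in the MCM2-2A libraries, without overlap. This share weighs abundant genes most, above all Ccnb1ip1, at 1228 CPM in Ctrl at T0. In bulk RNA, more cells with the higher level and more RNA per cell cannot be told apart.

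**Figure D1:**
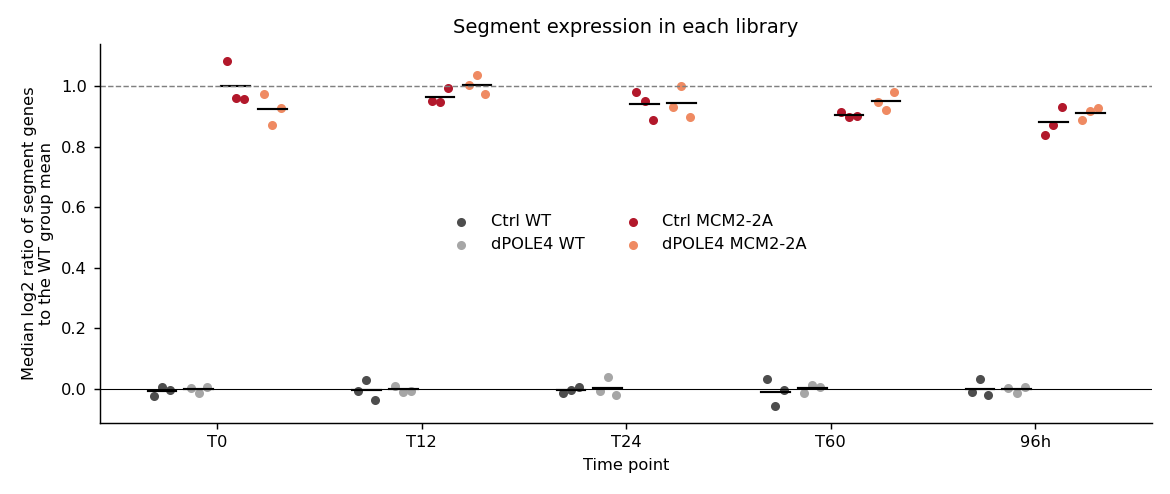
Median log2 ratio of the 131 segment genes to the mean of the WT group of the same treatment, in each of 60 libraries (points) with the group mean (black bar), by time point; the dashed line marks a 2-fold level. MCM2-2A libraries lie between 0.84 and 1.08, the highest in the Ctrl T0 group used to choose the interval, and WT libraries, which are set against their own group mean, between -0.06 and 0.04.

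As a description, the median log2 fold change of Ctrl MCM2-2A against Ctrl at T0 was 0.98, a fold of 1.97, with 109 of 131 genes past the thresholds (adjusted p below 0.01 and log2 fold change above 0.58) where 9.83% of all features were past them upward; since this contrast chose the interval, nothing is read from that count. In the other libraries, which come from the same clones, the medians in Ctrl were 0.98 at T12, 0.98 at T24, 0.91 at T60 and 0.93 at 96 h. The interval was chosen with earlier results of these data known, so these medians describe it and are no independent test of it. Under dPOLE4 they were 0.95 at T0, 1.03 at T12, 0.93 at T24, 0.96 at T60 and 0.95 at 96 h. The median over all features tested lay within 0.01 of 0 in each of these 9 comparisons.

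Most segment genes passed the test in each comparison. The counts describe an interval chosen for its higher level in the same clones. In Ctrl, 111 of 131 were called higher in MCM2-2A at T12, where 6.93% of all features tested were, 116 at T24 (9.71% of all), 110 at T60 (8.97%) and 106 at 96 h (9.23%). Under dPOLE4 the calls were 111 at T0 (10.3% of all), 111 at T12 (9.88%), 115 at T24 (8.73%), 112 at T60 (11.2%) and 109 of 130 tested at 96 h (9.7%). In all 9 comparisons 85 genes were called higher, against 2.33% of the 15915 features tested in all 9, and 127 lay above 0 in every comparison that tested them. Just 4 genes were called higher in none, namely 4931414P19Rik, Acin1, Il17d and Ebpl, the last 3 of which lay above 0 throughout. Every MCM2-2A library was above every WT library for 125 genes at T12 (22.6% of all features), 128 at T24 (25.7%), 127 at T60 (25.7%) and 120 at 96 h (22.2%) in Ctrl. The only gene called lower was Gjb2, at T60 in both treatments.

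The rise was close to 2-fold for most of the segment and differed between genes by more than it did between times. Averaged over T12, T24, T60 and 96 h in Ctrl, the log2 fold change had a median of 0.94, with a lowest decile of 0.58 and a highest of 1.39. This mean was a 1.5- to 2.5-fold rise for 100 genes, less for 16 and more for 15. At T12 the 95% interval of the log2 fold change held 1, a 2-fold change, for 72 of 131 genes, lay wholly above it for 28 and wholly below it for 31, and it held a 1.5-fold change for 34. The SD of the log2 fold change across genes was 0.35, and the median SD of a gene over the 4 Ctrl comparisons was 0.15. The Ctrl and dPOLE4 comparisons of a time share the clones and no library, and their log2 fold changes over the segment genes correlated with a Pearson r of 0.92 at T12, 0.88 at T24, 0.92 at T60 (131 genes each) and 0.94 at 96 h (130 genes).

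**Figure D2:**
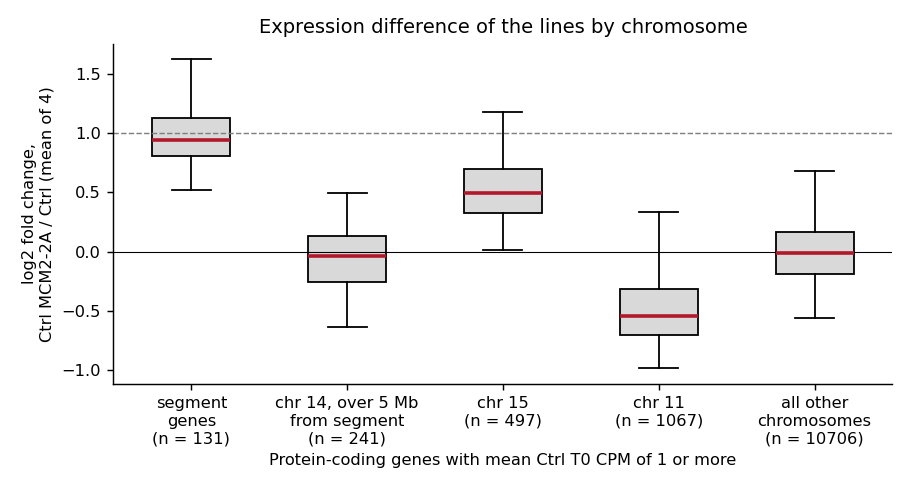
Log2 fold change of Ctrl MCM2-2A against Ctrl, averaged over T12, T24, T60 and 96 h, for protein-coding genes in 5 sets (boxes are quartiles, red lines medians, whiskers the 5th to 95th percentile, dashed line 2-fold). The segment genes have a median of 0.94, chromosome 15 has 0.49, chromosome 11 has -0.54, and the distant part of chromosome 14 and all other chromosomes lie near 0.

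Chromosome 14 genes more than 5 Mb from the segment had a median of -0.04 on the same mean (241 genes), and 3.7% of them exceeded 0.58 where 89.3% of the segment genes did. Elsewhere, chromosome 15 as a whole had a median of 0.49, a fold of 1.41 (497 genes), and chromosome 11 of -0.54, a fold of 0.688 (1067 genes). The medians of the 17 other chromosomes ran from -0.13 to 0.11.

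The higher level reached past both ends of the interval of the rule, so the interval is the core of a longer block. Inside the interval, the medians of 4 stretches of equal length from start to end were 1.003, 0.983, 0.921 and 1.012 at T12. The 3 genes just inside the start were Exoc5, a subunit of the exocyst that tethers secretory vesicles, Ap5m1, a subunit of the AP-5 adaptor, and Naa30, an N-terminal acetyltransferase, with log2 fold changes at T12 of 0.82, 0.48 and 1.08. Just outside it lay Tmem260 at 1.501, the ubiquitin ligase gene Peli2 at 1.17 and the kinectin gene Ktn1 at 0.49. Of 13 genes between 1 and 2 Mb before the start, 6 were called higher at T12 and their median was 0.49, whereas of 7 genes between 3 and 4 Mb before it 0 were, with a median of -0.30.

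Past the other end the higher level went on for some 4 Mb. Just inside that end were Pinx1, a telomerase inhibitor, at 0.89, Msra, a methionine sulfoxide reductase, at 0.69, and the kinesin gene Kif13b at 1.08. Just outside were Hmbox1 at 0.95, the Integrator subunit gene Ints9 at 0.91 and the glycosyltransferase gene Extl3 at 0.76. All 8 genes between 1 and 2 Mb past the end were called higher at T12, at a median of 1.14, and 3 of 5 genes between 3 and 4 Mb past it, at a median of 0.60. Of 5 genes between 4 and 5 Mb past the end, 0 were called higher at T12 (median 0.32) and 2 at 96 h (median 0.66). Of 21 genes between 5 and 6 Mb past the end 1 was called higher, with a median of 0.02.

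**Figure D3:**
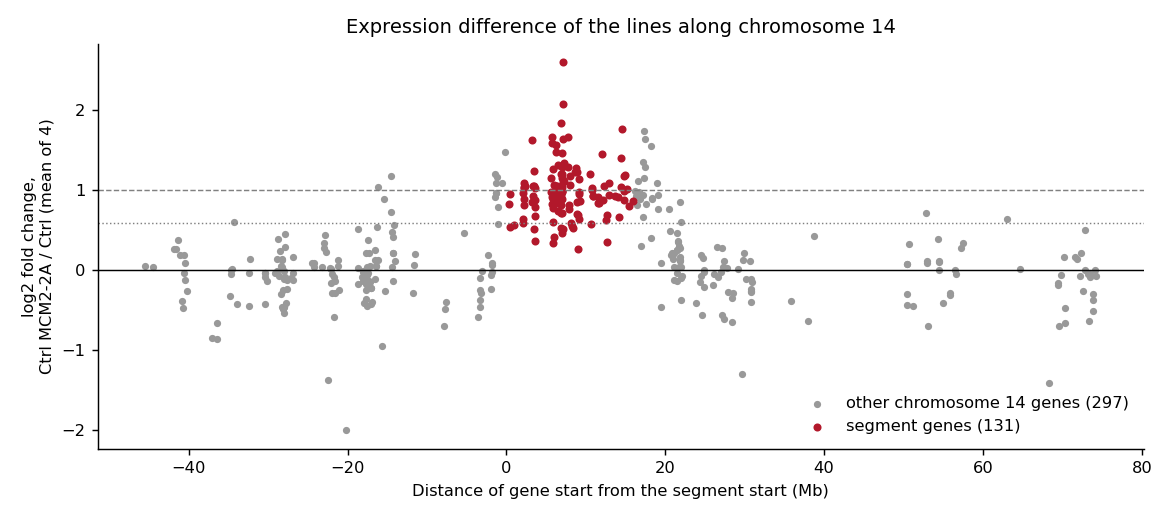
Log2 fold change of Ctrl MCM2-2A against Ctrl (mean of T12, T24, T60 and 96 h) for 131 segment genes (red) and 297 other protein-coding genes of chromosome 14 (grey) against the distance of each gene start from the segment start in Mb; lines mark 0, 1.5-fold (dotted) and 2-fold (dashed). The red points form a block near 1, and many neighbours up to about 2 Mb before and 4 Mb past the segment are raised too, some of them less. The rest of the chromosome lies near 0.

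The median of the mean log2 fold change was 1.02 in the 44 genes with the lowest Ctrl T0 CPM (1.03 to 8.42), 0.90 in the 43 in the middle and 0.96 in the 44 highest (24.6 to 1228 CPM). Its SD across genes was 0.46 in the lowest and 0.25 in the highest of these groups. Split the same way by exon length, the medians were 0.97, 0.90 and 0.99 from short to long. Genes on the plus strand (59) had a median of 0.96 and those on the minus strand (72) of 0.92. Long non-coding genes of the interval that passed the filter, 12 of 73, had a median of 1.26 at T12. Those passing at the other times had 1.14 at T24 (12 genes), 1.015 at T60 (9) and 0.764 at 96 h (11). The 15 protein-coding genes below 1 CPM that passed the filter had 1.52 at T12. A low gene of either kind could pass the filter through its higher group alone.

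Near the CPM minimum, Ltb4r2, a leukotriene B4 receptor at 1.03 CPM, and Emc9, a subunit of the membrane protein insertion complex at 1.03 CPM, were just inside, with log2 fold changes at T12 of 2.05 and 1.10. Rem2, a small GTPase at 0.93 CPM, and Slc7a8, an amino acid transporter at 0.87 CPM, were just outside, with 0.61 and 1.52.

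Among the 8 segment genes with the highest CPM, which does not take length into account, the rise ran from 1.33- to 2.39-fold. Ccnb1ip1, a ubiquitin ligase known for its role in meiotic crossing over, was also the highest per kb of exon, at 652 CPM per kb. In Ctrl at T12 its 3 WT libraries read 1274, 1393 and 1314 CPM and its MCM2-2A libraries 2168, 1818 and 2498 CPM, and the groups did not overlap. At T60 the WT libraries read 2621, 1766 and 2269 CPM and the MCM2-2A libraries 2906, 2375 and 2958, and there they did overlap. The log2 fold change was 0.71 ± 0.10 (SE) at T12 (adjusted p = 3.23e-04, edgeR quasi-likelihood test) and 0.32 ± 0.12 at T60 (adjusted p = 0.0404), the latter not called.

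Hnrnpc and Acin1, which both act in mRNA processing, rose least among the abundant genes. Hnrnpc, which binds nascent transcripts, read 414, 433 and 417 CPM in WT and 595, 635 and 628 CPM in MCM2-2A at T12, groups that did not overlap. Its log2 fold change was 0.57 ± 0.06, with a 95% interval of 0.44 to 0.69 that lies below 2-fold. Acin1, a component of the ASAP splicing complex, read 224, 264 and 226 CPM in WT and 301, 277 and 346 in MCM2-2A, also without overlap. Its log2 fold change was 0.38 ± 0.09 at T12 (95% interval 0.18 to 0.58) and between 0.34 and 0.49 in all 9 comparisons. Both had small adjusted p-values at T12 (3.26e-05 and 0.0072) and stayed under the fold change cutoff, except Hnrnpc in 1 of the 9 comparisons.

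Of the other abundant genes, Supt16, Chd8 and Tdh stood near 2-fold, Prmt5 above it and Ajuba below it. Supt16, the large subunit of the histone chaperone FACT, read 233, 248 and 232 CPM in WT and 504, 495 and 528 CPM in MCM2-2A at T12. Its log2 fold change was 1.11 ± 0.06 at T12 and between 0.99 and 1.11 across the 9 comparisons. Prmt5, the main symmetric arginine methyltransferase, read 106, 110 and 101 CPM against 249, 258 and 276 CPM, and its log2 fold change was 1.32 ± 0.06. The groups of both genes were far apart. Chd8, a chromatin remodeler, averaged 1.02 over the 4 Ctrl comparisons, Tdh, the threonine dehydrogenase on which mouse ESCs depend, 0.98, and Ajuba, a LIM protein of the Hippo pathway, 0.60.

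The 6 lowest and the 6 highest genes were taken among those of at least 10 CPM, by the mean log2 fold change over the 4 Ctrl comparisons. Besides Acin1 and Hnrnpc, the lowest were Gmpr2, a guanosine monophosphate reductase (mean 0.47), Psme2, a subunit of the PA28 proteasome activator (0.52), Ap5m1 (0.53) and Zmym2, a zinc finger corepressor (0.55). The highest were Pck2 (1.84), Rnf17 (1.66), Slc7a7 (1.66), Efs (1.57), Tgm1 (1.46) and Spata13 (1.45). On the opposite strand Gmpr2 overlaps Tinf2 and Nedd8, Ap5m1 overlaps Exoc5, Slc7a7 overlaps Oxa1l, Pck2 overlaps Gm10876, Tgm1 overlaps Gm49067 and Acin1 overlaps 3 genes. As the counting is not stated to use strand, the reads of these 6 may not be separable from those of their partners. Pck2, the mitochondrial phosphoenolpyruvate carboxykinase, read 13.5, 19.4 and 13.1 CPM in WT and 59.7, 56.0 and 66.7 CPM in MCM2-2A at T12. Its log2 fold change was 2.01 ± 0.14 at T12, 2.58 at T24 and 1.15 at 96 h. Rnf17, a germ cell gene of the piRNA pathway, read 23.8, 22.3 and 29.8 CPM against 94.5, 100.1 and 75.7 CPM, with a log2 fold change of 1.85 ± 0.13. Slc7a7, a cationic amino acid transporter, read 34.7, 37.9 and 34.6 CPM against 124, 117 and 126 CPM, and its 95% interval of 1.64 to 1.93 lies above 2-fold. In each of these 3 genes all MCM2-2A libraries stood well above all WT libraries.

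Grouped by function, the 7 lists had medians of the 4-time mean between 0.90 and 1.06. They were drawn up with earlier results of these data known and hold 100 of the 131 genes. In the whole segment, 111 of 131 were called higher at T12, 116 at T24, 110 at T60 and 106 at 96 h. Of all features tested, 6.93% to 9.71% were. The interval was chosen by its higher level, so the counts per list say nothing particular about a function. For RNA processing and export, 15 of 17 genes were called higher at T12 and 14 at 96 h, with a median of 0.95. This list includes Kpna3 and Xpo4, an importin and an exportin, at 0.69 and 1.23, and Pabpn1, the nuclear poly(A)-binding protein, at 0.89. Of 16 genes for chromatin and transcription, 13 were called at T12 and 15 at T60, with a median of 0.98. Of 14 genes for genome maintenance and cell division, 12 were called at T12 and 11 at T60 (median 0.97); Apex1, the main apurinic endonuclease, averaged 1.03.

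Proteasome, ubiquitin and NEDD8 genes had 7 of 8 called at T12 and 8 at T24, with a median of 0.90. Nedd8 itself, the ubiquitin-like modifier, averaged 1.15 and Psmb5, the chymotrypsin-like catalytic subunit, 0.92. Mitochondrial and metabolic genes had 12 of 16 called at T12 and 15 at T24 (median 0.91), among them Pnp, a purine nucleoside phosphorylase, at 1.09, Fdft1, the squalene synthase, at 1.04, and Oxa1l, an inner membrane insertase, at 0.83. Genes of membrane transport, trafficking and glycosylation had 20 of 22 called at T12 and 17 at T60 (median 0.91), among them the lysosomal protease gene Ctsb at 1.39. Secreted, receptor and junction proteins had 7 of 9 called at each of the 4 times (median 1.06), with Gjb2 called lower at T60. No other list had a gene called lower in these 4 comparisons.

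Most listed subunits encoded in the segment were called higher. Few of the genes listed with the same complexes and encoded elsewhere, named partners here, were called in either direction. The difference between the 2 sets was not tested. Psme3 and Setdb1 are counted as partners here and need not assemble with the segment subunits. For 16 complexes, 18 subunits lie in the segment and 77 partners elsewhere were measured. The 18 segment subunits had a median of the 4-time mean of 0.92, and 16 of them were called higher at T12, 17 at T24, 15 at T60 and 16 at 96 h. The 66 partners outside chromosomes 11, 14 and 15 had a median of -0.01 and ran from -0.59 to 0.22. None was called higher at any of the 4 times, while 1, 0, 2 and 1 were called lower. Of all features tested, 6.93%, 9.71%, 8.97% and 9.23% were called higher at these times. Called lower were 1356 of 17799, 1421 of 18708, 1431 of 18056 and 1141 of 17623. The segment subunits repeat the higher level by which the interval was chosen. For FACT, Supt16 averaged 1.05 and its partner Ssrp1 0.21. For the methylosome, Prmt5 averaged 1.26 against 0.07 for Wdr77 and 0.21 for Clns1a. Psmb5 averaged 0.92, and the 11 other 20S proteasome subunits outside those 3 chromosomes ran from -0.04 to 0.09.

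Mettl3, the catalytic subunit of the m6A writer, averaged 0.79 and its 5 partners outside those chromosomes -0.14 to 0.06. Dad1, of the oligosaccharyltransferase, averaged 0.97 against -0.15 to 0.21 for 7 partners. Rnaseh2b averaged 0.92 against 0.09 for Rnaseh2a and -0.40 for Rnaseh2c. Mphosph8, of the HUSH silencing complex, averaged 1.17. Fam208a, elsewhere on chromosome 14, averaged 0.05, Pphln1, on chromosome 15, 0.14, and Setdb1, counted with this complex here, 0.12. Tinf2, of the telomeric shelterin complex, averaged 0.99 against -0.42 to -0.01 for 6 partners, and Ift88, of the intraflagellar transport complex IFT-B, 1.28 against -0.59 to -0.03 for 5 partners. Haus4, of augmin, averaged 0.78, Osgep, of the tRNA-modifying KEOPS complex, 0.89, Rnf31, of the linear ubiquitin ligase LUBAC, 0.81, Ska3, of the kinetochore SKA complex, 1.13, Psme1, of the PA28 activator, 0.71, and Sap18, a partner of Acin1 in ASAP, 0.95. The 6 partners on chromosome 11 (Psmb3, Psmb6, Psme3, Ska2, Ints2 and Morc2a) averaged -0.62 to -0.46. Ints9, just past the segment end, averaged 0.92 beside 0.91 for the segment subunit Ints6 of the same Integrator complex.

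**Figure D4:**
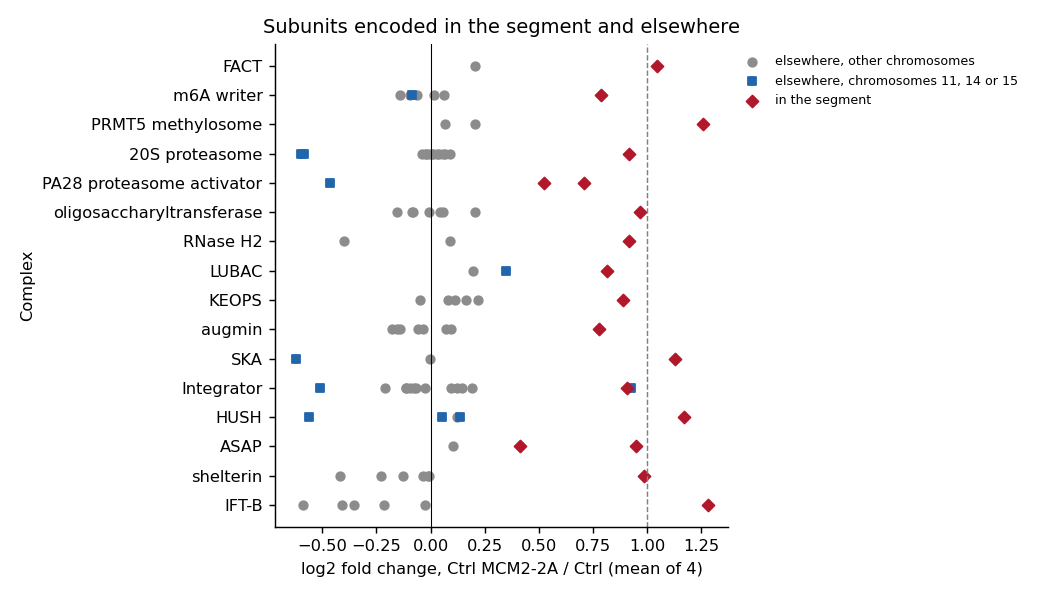
Log2 fold change of Ctrl MCM2-2A against Ctrl (mean of T12, T24, T60 and 96 h) for genes listed with 16 complexes (rows). Red diamonds are encoded in the segment, blue squares elsewhere on chromosomes 11, 14 or 15, grey circles on other chromosomes, and the dashed line marks 2-fold. The segment subunits lie between 0.41 and 1.28 and the grey partners between -0.59 and 0.22.

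Many segment genes changed between T12 and T60 in both lines, and such changes are called RA changes here. No group without RA was sequenced at these times, so RA, the lack of LIF and time cannot be told apart. Between T12 and T60 in WT Ctrl, 25 segment genes were called higher and 21 lower of 130 tested, a share below the 43.4% called among all features. In Ctrl MCM2-2A, 30 were called higher and 22 lower of 131, where 41.8% of all features were called. Calls were shared for 41 genes, which is 89.1% of the WT calls and 78.8% of the MCM2-2A calls, and 40 of the 41 had the same direction. Over all features, 76.0% of the WT calls and 75.7% of the MCM2-2A calls were shared, and 99.4% of the shared calls had the same direction, so agreement between the lines is not particular to the segment. The largest rises in WT were those of Gjb2, a gap junction protein (3.30 ± 0.17), Rec8, the meiotic cohesin subunit (3.02 ± 0.08), Lats2, a Hippo pathway kinase (1.86 ± 0.13), and Cdh24, a cadherin (1.80 ± 0.13). The largest falls were those of Slc7a7 (-3.21 ± 0.13), Phf11d (-2.50 ± 0.14), Ndrg2 (-2.42 ± 0.25) and Zfhx2, a homeobox gene (-2.19 ± 0.08). In MCM2-2A the 4 rises were 1.98, 2.27, 2.38 and 1.25 and the 4 falls -3.43, -1.86, -1.499 and -1.66, all called.

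Whether the rise of the segment genes stayed the same during differentiation was tested as the difference of the line effect between T60 and T12. It was called for 10 segment genes in Ctrl (6.01% of all features) and for 10 under dPOLE4 (7.74% of all), so that the segment genes were near the background. Of these, 6 genes were called in both treatments, each in the same direction: the difference fell for Rec8, Tep1, Osgep and Gjb2 and rose for Tgm1 and Sall2. The treatments share the clones and no library. How many of all features were called in both was not counted, so the overlap is not read as particular to the segment. In Ctrl alone Pip4p1 and Sdr39u1 were called lower and Psme2 and Shisa2 higher, and under dPOLE4 alone Ndrg2, Phf11d, Ltb4r2 and Fam167a higher; whether the treatments differ for these was not tested. Over the segment genes the median difference was -0.05 in Ctrl and -0.04 under dPOLE4, beside 0.03 and 0.01 over all features. The lines also differed in cell state at T60: the 10 pluripotency markers summed to 362 to 463 CPM in WT and 817 to 1249 CPM in MCM2-2A libraries, none of the 10 at 0, against 2665 to 2975 and 2999 to 3370 CPM at T12. Sox2 did not go with the sum in Ctrl at T60 (-0.23, not called). At T60 the 6 fibroblast markers summed to 297 to 512 CPM in WT and 68.5 to 183 CPM in MCM2-2A. Col1a1, Col1a2, Col3a1 and Dcn were called lower in Ctrl MCM2-2A, while Thy1 was called higher (1.53 against 5.86 CPM) and Lum was below 1 CPM. The 5 trophoblast markers summed to 763 to 999 CPM in WT and 1278 to 1731 CPM in MCM2-2A. Most of this sum was Krt8, at a mean of 783 CPM in Ctrl WT and 1229 CPM in Ctrl MCM2-2A. Cdx2, Krt7 and Krt8 were called higher, Tfap2c was not called (-0.16) and Elf5 was below 1 CPM. The 6 early RA response markers summed to 876 to 1001 CPM in WT and 710 to 761 CPM in MCM2-2A. Of these, Meis1 and Rarb were called lower in Ctrl and the others were not called. The 5 primitive endoderm markers summed to 247 to 372 and 373 to 542 CPM, with Sox17 and Dab2 called higher. Their part in the differences between T60 and T12 was not tested.

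**Figure D5:**
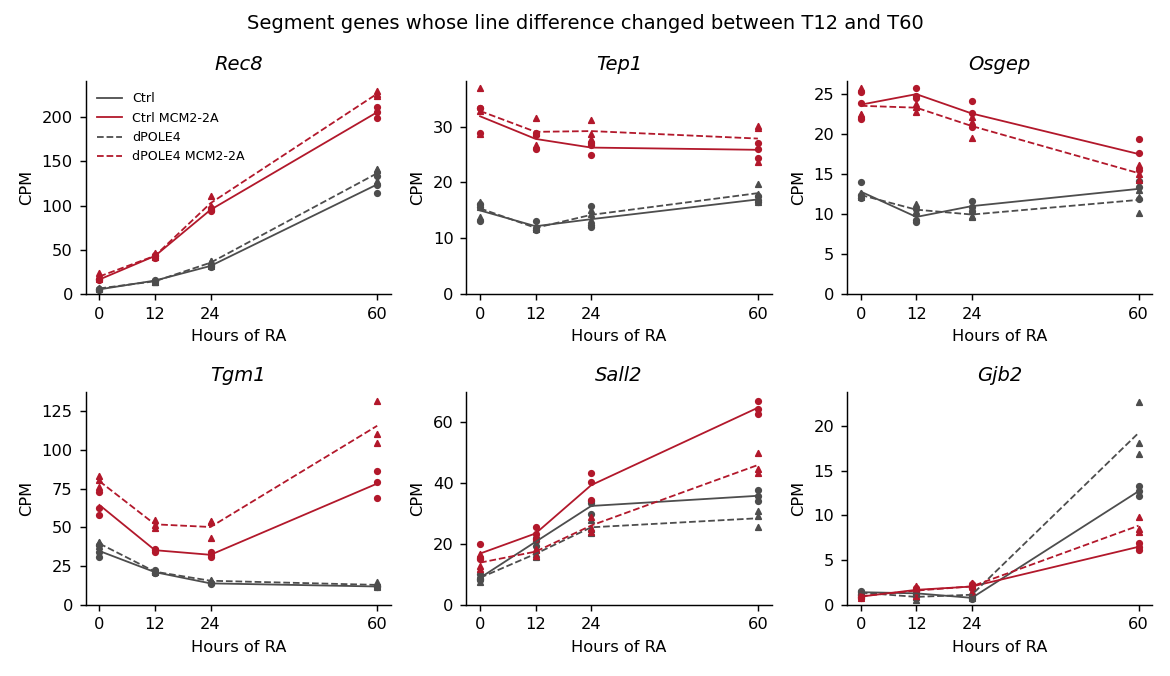
CPM of the 6 genes whose line difference changed between T12 and T60 in both treatments, at 0, 12, 24 and 60 h of RA; points are libraries, lines group means, grey WT, red MCM2-2A, solid lines and circles Ctrl, dashed lines and triangles dPOLE4. The red and grey lines converge for Tep1 and Osgep, part for Tgm1 and Sall2, and cross for Gjb2.

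The promoter windows of 4 of these genes, of Apex1 and of Pip4p1 follow, to show the sequence next to which these changes were measured. They are RefSeq windows of GRCm38.p6, from 250 bases before to 50 bases after the start, in the direction of the gene. Capitals mark exact matches to short motifs on either strand. The motifs are the GC box (GGGCGG), the CCAAT box (CCAAT), the E-box (CACGTG), the TATA box (TATAAA) and the nuclear receptor half-site (AGGTCA). Among all 32851 windows of that length, 35.7%, 37.4%, 7.2%, 13.6% and 16.3% hold these motifs, and among the 107 segment genes with a window, 54.2%, 42.1%, 8.4%, 7.5% and 13.1%. For Tgm1 the upstream of 2 listed starts is shown.
Osgep (chr14:50924844-50925143, minus strand): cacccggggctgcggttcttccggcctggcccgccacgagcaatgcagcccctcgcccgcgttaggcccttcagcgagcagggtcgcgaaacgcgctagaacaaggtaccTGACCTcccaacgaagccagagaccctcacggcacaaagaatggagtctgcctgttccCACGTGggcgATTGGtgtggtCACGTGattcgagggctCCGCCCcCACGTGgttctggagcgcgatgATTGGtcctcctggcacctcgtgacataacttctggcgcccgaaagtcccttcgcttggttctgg
Apex1 (chr14:50924699-50924998, plus strand): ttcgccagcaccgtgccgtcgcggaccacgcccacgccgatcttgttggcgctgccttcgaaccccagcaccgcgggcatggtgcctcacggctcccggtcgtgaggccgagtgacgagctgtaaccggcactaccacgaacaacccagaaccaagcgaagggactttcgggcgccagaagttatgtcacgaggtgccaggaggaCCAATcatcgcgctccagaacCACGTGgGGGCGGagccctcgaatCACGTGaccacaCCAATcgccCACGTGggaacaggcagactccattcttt
Pip4p1 (chr14:50930800-50931099, minus strand): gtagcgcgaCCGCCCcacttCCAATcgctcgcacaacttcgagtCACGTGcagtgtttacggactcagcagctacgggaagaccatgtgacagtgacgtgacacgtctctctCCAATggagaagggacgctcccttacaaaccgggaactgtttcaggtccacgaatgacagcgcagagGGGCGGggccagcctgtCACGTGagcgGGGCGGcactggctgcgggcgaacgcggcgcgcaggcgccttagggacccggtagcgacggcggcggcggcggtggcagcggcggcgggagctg
Rec8 (chr14:55617916-55618215, plus strand): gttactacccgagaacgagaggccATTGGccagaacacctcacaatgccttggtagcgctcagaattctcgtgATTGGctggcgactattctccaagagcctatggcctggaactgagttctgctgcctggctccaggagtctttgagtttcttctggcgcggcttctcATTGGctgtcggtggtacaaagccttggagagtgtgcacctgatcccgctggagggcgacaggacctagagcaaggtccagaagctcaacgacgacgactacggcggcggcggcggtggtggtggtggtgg
Gjb2 (chr14:57104653-57104952, minus strand): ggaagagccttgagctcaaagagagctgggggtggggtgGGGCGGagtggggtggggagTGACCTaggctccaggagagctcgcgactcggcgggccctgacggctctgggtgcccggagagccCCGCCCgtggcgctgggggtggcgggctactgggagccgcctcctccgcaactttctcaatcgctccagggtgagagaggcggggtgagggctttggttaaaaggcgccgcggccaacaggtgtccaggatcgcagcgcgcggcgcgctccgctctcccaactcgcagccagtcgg
Tgm1 (chr14:55713443-55713742, minus strand): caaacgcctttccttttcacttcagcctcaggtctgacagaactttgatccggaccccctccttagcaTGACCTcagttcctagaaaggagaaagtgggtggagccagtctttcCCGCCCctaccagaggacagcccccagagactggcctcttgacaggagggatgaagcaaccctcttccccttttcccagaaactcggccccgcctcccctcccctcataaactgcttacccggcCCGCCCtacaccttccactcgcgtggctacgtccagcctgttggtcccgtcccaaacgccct
Osgep and Apex1 start back to back, and 155 bases of their windows are shared, with all 3 E-box matches and the GC box of both. The Pip4p1 window holds 2 E-box matches, 3 GC box matches and 2 CCAAT boxes. The Rec8 window holds 3 CCAAT boxes and none of the other 4 motifs. The Gjb2 and Tgm1 windows hold 2 GC box matches and 1 nuclear receptor half-site each. No match says where a factor bound.

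Of the genes whose difference fell in Ctrl, Tep1, Osgep and Pip4p1 lie close together on the minus strand, between positions 50824059 and 50930856. Tep1 encodes a protein of the telomerase and vault particles. Its Ctrl libraries at T12 read 11.5, 13.1 and 11.9 CPM in WT and 25.9, 28.9 and 28.6 CPM in MCM2-2A. At T60 they read 16.5, 17.6 and 16.8 CPM against 26.1, 24.4 and 27.0 CPM. The lines did not overlap at either time, and the WT level rose while the MCM2-2A level did not. The log2 fold change between lines went from 1.21 ± 0.09 to 0.62 ± 0.09, a difference of -0.58 ± 0.12 (adjusted p = 0.00353), and under dPOLE4 of -0.68 ± 0.14 (adjusted p = 0.00216).

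Osgep, the catalytic subunit of KEOPS, read 10.7, 9.06 and 9.27 CPM in WT and 24.5, 25.7 and 24.8 CPM in MCM2-2A at T12 in Ctrl. At T60 it read 13.4, 11.9 and 14.2 CPM against 19.4, 15.6 and 17.6 CPM, closer but still without overlap. Its difference between T60 and T12 was -0.95 ± 0.15 (adjusted p = 3.57e-04) in Ctrl and -0.80 ± 0.14 (adjusted p = 3.53e-04) under dPOLE4. Pip4p1, a phosphatidylinositol 4,5-bisphosphate phosphatase, had -0.66 ± 0.14 (adjusted p = 0.00343) in Ctrl and -0.35 ± 0.13 (adjusted p = 0.0591) under dPOLE4. Apex1, between them, read 69.7, 71.8 and 70.4 CPM in WT and 158, 169 and 176 CPM in MCM2-2A at T12, and 46.5, 46.9 and 45.6 against 87.4, 85.0 and 89.4 CPM at T60. It fell in both lines, and its difference of -0.33 ± 0.08 was not called (adjusted p = 0.0106), nor that of -0.20 ± 0.11 under dPOLE4. Apex1 and Pip4p1 overlap on opposite strands, so their reads may not be separable. Leaving out 1 library at a time kept Osgep called in all 12 fits in Ctrl, Pip4p1 in 9 and Tep1 in 7.

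Rec8 rose between T12 and T60 in both lines and the gap between them narrowed on the log scale. In Ctrl at T12 it read 14.5, 15.2 and 16.2 CPM in WT and 41.2, 43.4 and 44.7 CPM in MCM2-2A. At T60 it read 134, 115 and 123 CPM against 199, 206 and 212 CPM. The MCM2-2A libraries were above the WT libraries at both times. Its log2 fold change between lines was 1.51 ± 0.08 at T12 and 0.74 ± 0.06 at T60, a difference of -0.76 ± 0.10 (adjusted p = 4.4e-05), and under dPOLE4 of -0.86 ± 0.09 (adjusted p = 2.32e-06).

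Gjb2 was higher in WT by T60. In Ctrl at T12 it was low, at 1.26, 1.05 and 1.54 CPM in WT and 1.57, 1.61 and 1.83 CPM in MCM2-2A, a log2 fold change of 0.38 ± 0.24 (adjusted p = 0.236). At T60 it read 13.3, 12.2 and 12.7 CPM in WT and 6.12, 6.89 and 6.44 CPM in MCM2-2A, all below the WT libraries, with a log2 fold change of -0.96 ± 0.12 (adjusted p = 1.14e-05). Under dPOLE4 it read 22.7, 18.1 and 16.8 CPM against 8.48, 8.19 and 9.85 CPM at T60. The difference between the times was -1.33 ± 0.23 (adjusted p = 8.67e-04) in Ctrl and -1.87 ± 0.35 (adjusted p = 8.59e-04) under dPOLE4.

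Tgm1, a transglutaminase of stratified epithelia, moved the other way. At T12 in Ctrl it read 20.5, 22.3 and 20.4 CPM in WT and 36.3, 34.4 and 35.1 CPM in MCM2-2A. At T60 the WT libraries had gone down to 11.92, 11.51 and 11.99 CPM while the MCM2-2A libraries read 69.2, 86.2 and 79.3 CPM. It is the gene of the 41 called for RA in both lines that moved in opposite directions, at -0.84 ± 0.10 in WT and 1.17 ± 0.08 in MCM2-2A. The difference of the line effect was 1.99 ± 0.12 (adjusted p = 1.61e-08) in Ctrl and 1.86 ± 0.13 (adjusted p = 1.7e-08) under dPOLE4, where MCM2-2A libraries reached 105, 132 and 111 CPM at T60.

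Sall2, a zinc finger transcription factor, stood near the WT level early and above it late. At T12 in Ctrl it read 19.13, 21.74 and 21.04 CPM in WT and 21.6, 25.3 and 23.1 CPM in MCM2-2A, groups that overlapped, with a log2 fold change of 0.19 ± 0.09 (adjusted p = 0.134). At T60 it read 33.9, 37.7 and 35.5 CPM against 62.6, 66.8 and 64.2 CPM, without overlap, with 0.87 ± 0.07 (adjusted p = 3.45e-07). The difference was 0.68 ± 0.11 (adjusted p = 5.81e-04) in Ctrl and 0.62 ± 0.13 (adjusted p = 0.0019) under dPOLE4.

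Few segment genes were called on removing POLE4, and few of all features were, so the low number is not particular to the segment. Called in dPOLE4 MCM2-2A against Ctrl MCM2-2A were 0 segment genes at T0 (0.0715% of all features), 1 at T12 (0.404%), 4 at T24 (1.02%), 1 at T60 (2.25%) and 0 at 96 h (0.304%), with 20 and 10 at an unadjusted p under 0.05 at T0 and 96 h and 0 by DESeq2 at both. At T60 DESeq2 called 3 in place of 1 (Jph4 and Sdr39u1 besides Ltb4r2), and at T12 and T24 it called 1 and 4. With the replicate number as a block, which pairs the libraries at T0, Slc22a17 was called there as well, 1 gene in place of 0. In dPOLE4 against Ctrl of the WT line, 0 segment genes were called at T0, T12, T24 and 96 h, where 0% of all features were, and 0 at T60, where 0.193% were; 17, 9, 3, 13 and 17 had an unadjusted p under 0.05, and DESeq2 called Gjb2 at T60. The counts at an unadjusted p under 0.05 stand without the share over all features, and nothing is read from them. The difference between the lines was not tested, and the medians over segment genes lay between -0.03 and 0.03 in all 10 comparisons.

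Ltb4r2 accounted for the calls at T12 and T60 and was called at T24 too. At T24 it read 3.86, 4.28 and 3.76 CPM in Ctrl MCM2-2A and 6.85, 7.92 and 7.56 CPM in dPOLE4 MCM2-2A, groups that did not overlap. Its log2 fold change was 0.90 ± 0.14 at T24 (adjusted p = 0.00172), 0.97 ± 0.15 at T12 (adjusted p = 0.00621) and 0.85 ± 0.15 at T60 (adjusted p = 0.00469). Leaving out 1 library at a time kept the call in 1 of 6 fits at T12 and in 3 of 6 at T60, and it was lost at T12 with the replicate number as a block. The other 3 genes called at T24 were Tgm1 (0.64 ± 0.09), Sall2 (-0.61 ± 0.09) and Jph4, a junctophilin (-0.71 ± 0.11). Jph4 read 13.0, 11.9 and 11.4 CPM in Ctrl MCM2-2A and 7.58, 7.46 and 7.11 CPM in dPOLE4 MCM2-2A. In the WT line at T24 the log2 fold changes of Ltb4r2, Tgm1, Sall2 and Jph4 were 0.37, 0.17, -0.35 and -0.23, with 0 of the 4 called.

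Some segment genes share reads with a neighbour. In the annotation 16 overlap another coding gene on the same strand, among them the readthrough models Gm20521, Gm49378, Gm49342, Gm49361 and Gm49336, and their values are uncertain. Without these 16, the medians in Ctrl were 0.99 at T12, 0.99 at T24, 0.91 at T60 and 0.94 at 96 h. On the opposite strand, 66 of the 131 overlap a gene, including 5 of the 16.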

How the data were processed

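RNA depleted of rRNA was measured in 60 libraries, 3 in each of 20 groups taken from the sample titles. The authors deposited counts per gene and repeat family, made from reads trimmed with cutadapt 4.2, aligned to mm10 with STAR keeping multi-mapping reads, and counted with TEcount on GENCODE M25; the strand setting of the counting is not given in the sources used here. The 96 h experiment is a separate table and was fitted separately. Levels set beside each other across the tables are CPM of each library. The mean Ctrl T0 CPM that sets the minimum and ranks the genes used plain library totals. The CPM printed per library used totals scaled by TMM factors, found separately for the 96 h table.

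From the deposited counts, gene symbols and positions were taken from GENCODE for GRCm38, and promoters from RefSeq (GRCm38.p6), where 107 of 131 segment genes matched. Each comparison was fitted with edgeR 4.0.16 in R 4.3.3 (quasi-likelihood F test, TMM scaling, filterByExpr at 10 counts) on the libraries of the groups compared, and p-values were adjusted over all features tested (Benjamini-Hochberg). A feature was called at an adjusted p under 0.01 and a log2 fold change beyond 0.58. The scripts were tested on simulated data. 3 protein-coding genes of the interval are not analysed here. Libraries are separate samples of 1 clone per line, so p-values measure the spread between these samples.

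The segment genes, the lists and the complexes were chosen with earlier results of these data known. Named were the 8 genes of highest CPM, the 6 highest and lowest by mean log2 fold change at 10 CPM or more, genes at each end and at the CPM minimum, up to 4 per list, the largest RA changes, every gene called for POLE4 depletion or for the difference between T60 and T12, and complex subunits. Same-numbered libraries deviated together (every correlation over 0.1) at 96 h and, for dPOLE4 against Ctrl, at T0. Alternatives were DESeq2 1.42.0 and its size factors, TMM factors without chromosomes 11, 14 and 15, other filters, thresholds and CPM minimums, a replicate block, a fit of all 4 groups of a time, and leaving out each library; genes overlapping no coding gene on the same strand were added after seeing the data. Intervals are 95% intervals of the fit.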

Additional observations from a re-analysis of the deposited data

Results flagged for a closer look

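The line effect of 14 segment genes differed between T60 and T12 in Ctrl, under dPOLE4 or in both, by a test of the difference itself (edgeR quasi-likelihood test, interaction contrast). In each treatment this was 10 of 131, or 7.6%, beside 6.01% of all features in Ctrl and 7.74% under dPOLE4, so the number called is near the background. Log2 differences in Ctrl were -0.58 for Tep1, -0.95 for Osgep, -0.66 for Pip4p1, -0.76 for Rec8, -0.98 for Sdr39u1, -1.33 for Gjb2, 0.68 for Sall2, 0.60 for Psme2, 1.99 for Tgm1 and 1.08 for Shisa2. Under dPOLE4 they were -0.68 for Tep1, -0.80 for Osgep, -0.86 for Rec8, -1.87 for Gjb2, 0.62 for Sall2, 1.86 for Tgm1, 1.46 for Ndrg2, 1.21 for Ltb4r2, 1.08 for Phf11d and 1.34 for Fam167a. In Ctrl, Sdr39u1 stayed called in 3 of 12 fits that left out 1 library, Psme2 in 5, Shisa2 in 6, Tep1 in 7 and Pip4p1 in 9, and under dPOLE4 Ltb4r2 in 4, Fam167a in 5 and Sall2 in 8. With the replicate number as a block, Sdr39u1 and Psme2 were no longer called in Ctrl. Tep1 in Ctrl was not called with no filter or with 10 counts in every library, nor Sall2 under dPOLE4 with no filter. Tested against a 1.5-fold change, Tgm1 alone stayed called in Ctrl, and Tgm1 and Gjb2 under dPOLE4.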

How the results depend on the processing

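No result changed direction under any alternative run. Tested against a 1.5-fold change (glmTreat), the segment genes called in Ctrl were 69 at T12, 67 at T60 and 49 at 96 h, and under dPOLE4 67 at T0, 66 at T24, 71 at T60 and 61 at 96 h; 1 and 2 differences between T60 and T12 stayed called in Ctrl and dPOLE4, 27 RA changes in WT and 0 changes on POLE4 depletion in MCM2-2A. With a minimum of 10 CPM, which leaves 80 genes, the calls were 73, 75, 69 and 70 in Ctrl at T12, T24, T60 and 96 h, and 71, 70, 72, 70 and 71 under dPOLE4 from T0 to 96 h. The differences called were then 5 and 4, the RA changes 24 and 25, and the depletion calls in MCM2-2A 1. With no fold change cutoff, 70 and 89 RA changes and 8 depletion calls in MCM2-2A were reached. Depletion in WT had 1 call by DESeq2 and 1 with no filter. The Ctrl T60 median moved to 0.897 by DESeq2, 0.933 with no filter, 0.928 with 10 counts in every library and 0.898 at 10 CPM, the dPOLE4 T12 median to 0.996 at 10 CPM, the dPOLE4 T60 median to 0.997 without same-strand overlaps, and the dPOLE4 96 h median to 0.914 with no filter and 0.905 at 10 CPM. The cause was not tested.

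With the replicate number as a block, depletion calls were 7 in MCM2-2A and 1 in WT, and the Ctrl T60 median was 0.918. At T60 in MCM2-2A alone, the depletion calls went from 1 to 4 (Jph4, Nfatc4 and Sdr39u1 besides Ltb4r2), at T12 from 1 to 0 and at T0 from 0 to 1; DESeq2 gave 3 at T60. The counts for the line comparisons, for RA and for the differences between T60 and T12 moved by less than 1.5 times with the block. Leaving out 1 library at a time gave 6 to 9 differences called in Ctrl (6 without Ctrl T60 replicate 2 or Ctrl MCM2-2A T12 replicate 2) and 2 to 5 depletion calls in MCM2-2A (2 without Ctrl MCM2-2A T24 replicate 1 or 2, or dPOLE4 MCM2-2A T24 replicate 3). The medians ran from 0.899 to 0.935 at Ctrl T60, 0.935 to 1.00 at dPOLE4 T24 and 0.922 to 0.959 at dPOLE4 96 h. Depth limits the genes of low CPM most, whose values spread more.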
